A study of Homo sapiens with 4 samples.

Results

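In HK2 cells treated with FG-4592, 444 of the 1689 HIF1α ChIP-seq peaks called in replicate 1 lay away from transcript starts and were called in that replicate alone, 26.3% of its list. They were chosen by the measured positions of peaks in both replicates. A peak entered when it lay on chromosomes 1 to 22 or X, overlapped no window of 1 kb on either side of a transcript start in the GENCODE annotation, and overlapped none of the 16953 peaks of replicate 2 by 1 bp or more. Of 1689 peaks, 1647 lay on these chromosomes, 1075 of them overlapped a start site window and 572 were distal, of which 128 met a replicate 2 peak and were set aside. The edge of the distal peak nearest to a start lay 1008 bp from it, and the farthest edge among the start site peaks of replicate 1 only lay 988 bp from one. The smallest gap to a replicate 2 peak was 113 bp, and the smallest overlap among the 128 peaks set aside was 165 bp. Because absence from replicate 2 is part of the choice, none of these peaks has a replicate, and their positions are described without a test. No height or score is given per peak in the lists, so the peaks could not be ranked by strength.

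The study asked how sustained HIF1α activation alters lipid handling in kidney tubule cells. HK2 is an immortalized human line from the renal proximal tubule, and FG-4592 (roxadustat) blocks the oxygen-dependent hydroxylation that marks HIFα for destruction. All 4 samples used here are of HK2 cells with no stated genetic change, labelled as given FG-4592 at 50 μM. The paper's methods give 6 h for the RNA-seq and the same condition for the ChIP-seq, and the samples are 2 HIF1α immunoprecipitations with a peak list each, and 2 RNA-seq libraries. Untreated cells were not analysed here, so every expression value is a level under FG-4592 and none is a change.

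HIF1α pairs with ARNT (HIF1β) and binds short DNA words with the core ACGTG or GCGTG. That hydroxylation normally keeps HIFα scarce, so that binding rises when oxygen or hydroxylase activity falls. The factor is known for promoters of glycolytic genes and also for enhancers in introns and between genes, from which it can act on starts at a distance.

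The words under the peaks are shown first for genes from lists drawn up by topic, such as glycolysis, oxygen sensing and lipid genes. The stretches below come from GRCh37, read 5′ to 3′, and capitals mark each ACGTG or GCGTG on either strand (also visible as CACGT or CACGC) and each TGANTCA, the word bound by AP-1 factors. Each stretch holds the core nearest to the centre of a peak whose nearest protein-coding gene is in one of these lists. The 11 stretches were picked after the words were seen. *SLC2A1*, the glucose transporter GLUT1, is shown at chr1:43406833-43406879 on the plus strand, in its own intron. *PFKFB3*, which makes the activator of phosphofructokinase, is shown at chr10:6341400-6341459 on the plus strand, in an intron of the long non-coding RNA LINC02649. *SLC2A3*, the transporter GLUT3, is shown at chr12:8123402-8123446 on the minus strand, in an intron of a transcript longer than the canonical one. *EGLN3*, a HIF prolyl hydroxylase, is shown at chr14:34529491-34529524 on the plus strand, also in an intron outside the canonical transcript. *EPAS1*, which encodes HIF2α, is shown at chr2:46460185-46460242 on the plus strand, between genes. The *VEGFA* stretches, near the gene of the main angiogenic growth factor, lie between genes at chr6:43766751-43766803 on the plus strand and at chr6:43854055-43854099 on the minus strand. *DDIT4*, an inhibitor of mTORC1 signalling, is shown at chr10:74020770-74020814 on the minus strand, between genes. *PLIN2*, a lipid droplet coat protein, and *AGPAT2*, an enzyme of phosphatidic acid synthesis, are shown at chr9:19161888-19161932 and chr9:139591936-139591980 on the plus strand, both between genes. *JUN*, an AP-1 subunit, is shown at chr1:59221337-59221381 on the plus strand, in an intron of a long non-coding RNA.
SLC2A1: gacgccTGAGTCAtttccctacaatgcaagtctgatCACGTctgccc
PFKFB3: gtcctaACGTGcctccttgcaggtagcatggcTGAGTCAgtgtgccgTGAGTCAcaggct
SLC2A3: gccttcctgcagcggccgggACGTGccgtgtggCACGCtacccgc
EGLN3: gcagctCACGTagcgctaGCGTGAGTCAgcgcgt
EPAS1: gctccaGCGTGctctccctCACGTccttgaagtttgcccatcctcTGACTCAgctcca
VEGFA, nearer peak: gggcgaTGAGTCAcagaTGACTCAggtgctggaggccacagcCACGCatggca
VEGFA, farther peak: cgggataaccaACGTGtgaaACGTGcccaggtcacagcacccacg
DDIT4: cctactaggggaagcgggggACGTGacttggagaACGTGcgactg
PLIN2: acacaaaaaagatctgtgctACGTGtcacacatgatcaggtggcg
AGPAT2: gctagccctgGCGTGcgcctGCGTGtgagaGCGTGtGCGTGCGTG
JUN: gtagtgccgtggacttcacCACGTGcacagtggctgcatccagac
Of these stretches, those of *SLC2A1*, *PFKFB3*, *EGLN3*, *EPAS1* and the nearer *VEGFA* peak pair a core with TGANTCA, and the nearer *VEGFA* and the *PFKFB3* stretches hold that word 2 times each.

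The RNA-seq values were set against cell type markers. Of 11 proximal tubule markers, 2 reached an FPKM (fragments scaled to transcript length and library size) of 1 in both libraries: *GGT1*, with 62.3 in replicate 1 and 58.5 in replicate 2, and *SLC5A2*, with 2.59 and 1.70. The uptake receptor *LRP2*, the transporters *SLC22A6* and *SLC22A8* and the factor *HNF4A* were listed at 0 in both. Of 6 general renal epithelial markers, 4 passed, among them *PAX8* (121 and 114), *KRT8* (166 and 162) and *KRT18* (47.5 and 48.0), while the epithelial cadherin *CDH1* (0.211 and 0.379) and the renal factor *PAX2* (0.287 and 0.359) did not. Markers of the thick limb and distal tubule, collecting duct, podocytes, endothelium and leukocytes stayed below 1, with *PECAM1* not matched by identifier. Of the 2 fibroblast markers *COL1A1* stood at 38.7 in each library and *PDGFRB* at 0.490. The libraries thus carry some renal epithelial markers, without *CDH1* and *PAX2* at this level, and lack most proximal tubule markers.

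A HIF core lay within 100 bp of the centre in 385 of the 444 distal peaks, 86.7% (Wilson 95% interval 83.2 to 89.6). The same word was in 25.5% (22.7 to 28.4) of 888 windows of 201 bp placed 1 kb to either side, and in 15.9% of all 12957345 windows of that width outside start site windows. The start site peaks of replicate 1 only held it in 92.4% (90.5 to 94.0) of 898 windows. All peaks come from a single library, so these intervals cover counting error only, and the shares are set side by side without a test. In the whole peak, at a median width of 310.5 bp, 394 distal peaks (88.7%) held a core.

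The core is built around CpG, which is unevenly spread over the genome. The distal windows had a median of 6 CpG (quartiles 3 and 10) and 54.2% G+C, the windows beside them 3 CpG and 48.3%, and all windows outside start site windows 1 CpG and 39.3%. Within each CpG class the share with a core remained above that of all windows of the class. It was 57.3% (46.5 to 67.5) of 82 distal peaks with 0 to 2 CpG, against 8.28% of windows. With 3 to 5 CpG it was 92.4% (86.5 to 95.8) of 131 peaks against 33.9%, and with 10 or more it was 95.5% (89.97 to 98.1) of 112 peaks against 66.8%. A window without CpG cannot hold a core, which lowers the background of the lowest class; with 1 or 2 CpG the share was 72.3% (60.4 to 81.7) of 65 peaks against 13.5%.

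**Figure D1:**
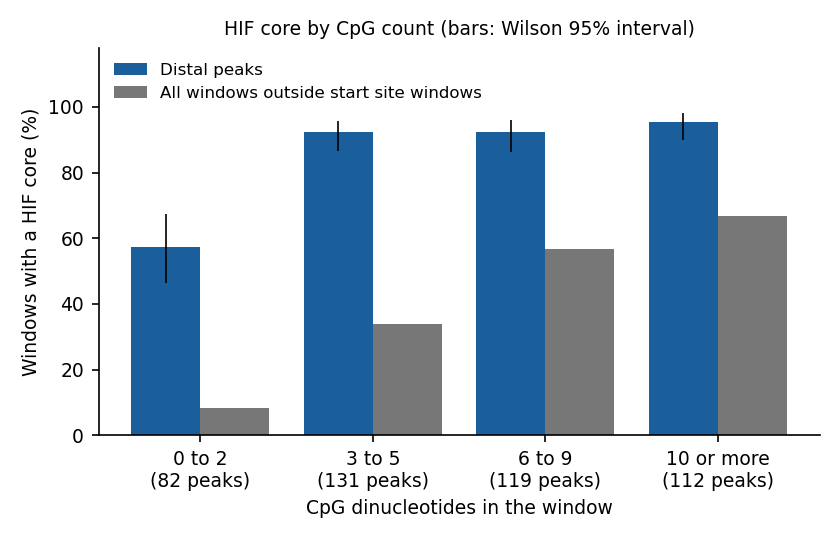
Share of 201 bp windows with a HIF core (y axis, %) by the number of CpG in the window (x axis), for the distal peaks (blue, with Wilson 95% intervals) and for all windows outside start site windows (grey). The blue bars run from 57.3% to 95.5% and stand above the grey bars, 8.28% to 66.8%, in each of the 4 classes.

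The cores were concentrated at the middle of the peaks. In the 385 peaks with a core, the nearest one lay at a median of 16 bp from the centre (quartiles 7 and 32), and in 261 of them (67.8%) it lay within 25 bp. In bins of 20 bp, 28.2% and 29.5% of the distal peaks held a core in the bins just left and right of the centre, against 3.38% in the bin centred 490 bp to the right. The nearest core read ACGTG in 288 peaks and GCGTG in 97, so ACGTG made up 74.8%, while in the windows beside the peaks GCGTG was the commoner word and ACGTG made up 40.7% of 226. The flanking bases also differed from those windows. The core was followed by C in 40.5% of peaks and in 14.6% of the side windows, and preceded by T in 39.7% and 19.9%. Of the 444 peaks, 203 had a single core within 100 bp, 111 had 2, 42 had 3 and 29 had 4 or more.

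**Figure D2:**
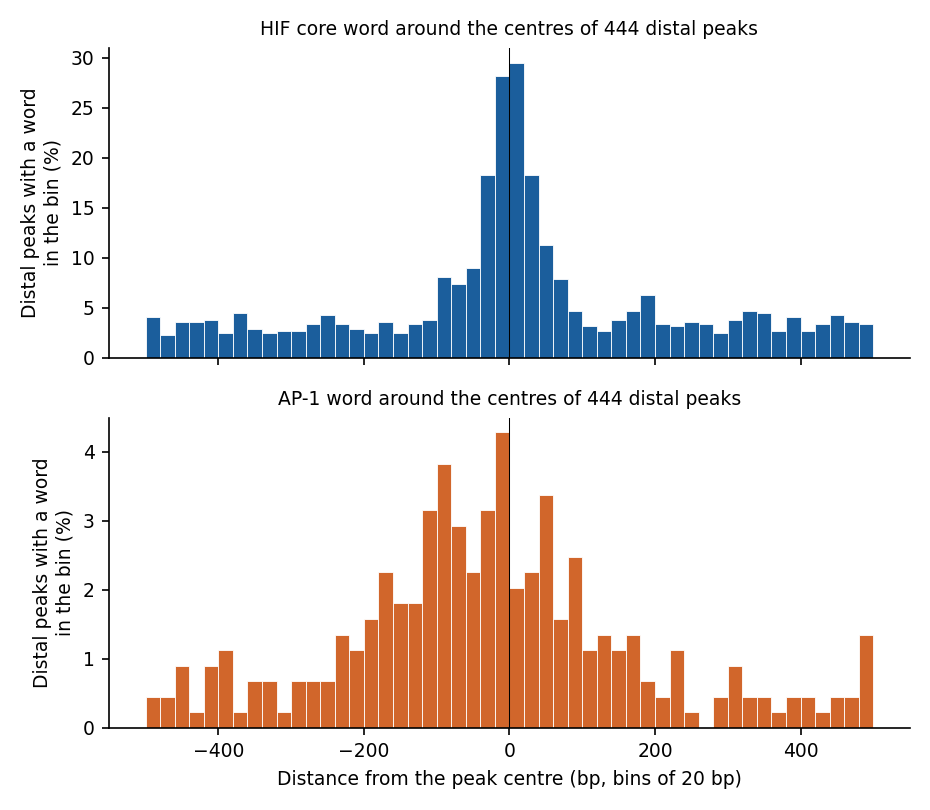
Share of the 444 distal peaks with a word (y axis, %) in bins of 20 bp by distance from the peak centre (x axis, bp), for the HIF core (top, blue) and the AP-1 word (bottom, orange). The HIF core reaches 29.5% just right of the centre and the AP-1 word 4.28% just left of it, over a wider stretch.

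Among the 9 words sought, the AP-1 word TGANTCA was the commonest after the core. It lay within 100 bp of the centre in 100 distal peaks, 22.5% (18.9 to 26.6), against 5.41% (4.10 to 7.09) of the side windows and 6.36% of all windows outside start site windows. In the start site peaks of replicate 1 only, it was found in 62 of 898, 6.90% (5.42 to 8.75), close to the background. These start site windows had a median of 69.2% G+C and 20 CpG, and the part of base composition in that difference was not tested. The word was found in 28.6% (23.2 to 34.7) of the 234 intronic peaks and in 15.9% (11.3 to 21.9) of the 182 intergenic ones, a difference that was not tested. It was spread more broadly than the core, at a median of 41 bp from the centre, and was in 4.28% of peaks in the bin just left of the centre.

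Of the 100 peaks with TGANTCA, 92 also had a core (92%, 85.0 to 95.9), against 85.2% (81.0 to 88.5) of the 344 peaks without TGANTCA. The intervals overlap, and the difference was not tested. In 46 peaks the nearest core and TGANTCA lay at most 40 bp apart without sharing bases. In 5 peaks the nearest core shared bases with a TGANTCA, since the end of a core can run into that word. Among the 385 peaks with a core 23.9% had TGANTCA, and among the 59 without a core 13.6% (7.03 to 24.5), an interval that reaches the share of the others.

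Apart from CACGTG, the other words differed less from the windows beside the peaks. CACGTG, the E-box, which contains ACGTG and cannot be told from a core by its letters, was in 16.7% (13.5 to 20.4) of distal peaks, 2.82% of side windows and 1.77% of all windows. TGACNNNGC, the core of the antioxidant response element, which TGACTCA followed by GC also matches, was in 13.7% and 7.88%, and in 5.75% of all windows. GGGCGG, the GC box, was in 17.6% of distal peaks, 8.67% of side windows and 2.37% of all windows, and CCGGAA, bound by ETS factors, in 4.73%, 2.93% and 1.14%. Both words were far commoner in the start site peaks of replicate 1 only, at 59.4% and 18.6%. GGAATG, bound by TEAD factors, was in 15.1% of distal peaks against 11.4% beside them and 10.7% of all windows. CAAAGTNCA of HNF4 and TGTTTAC of FOX factors were rare in all sets, in 3 and 7 distal peaks (0.676% and 1.58%) against 0.971% and 3.17% of all windows.

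**Figure D3:**
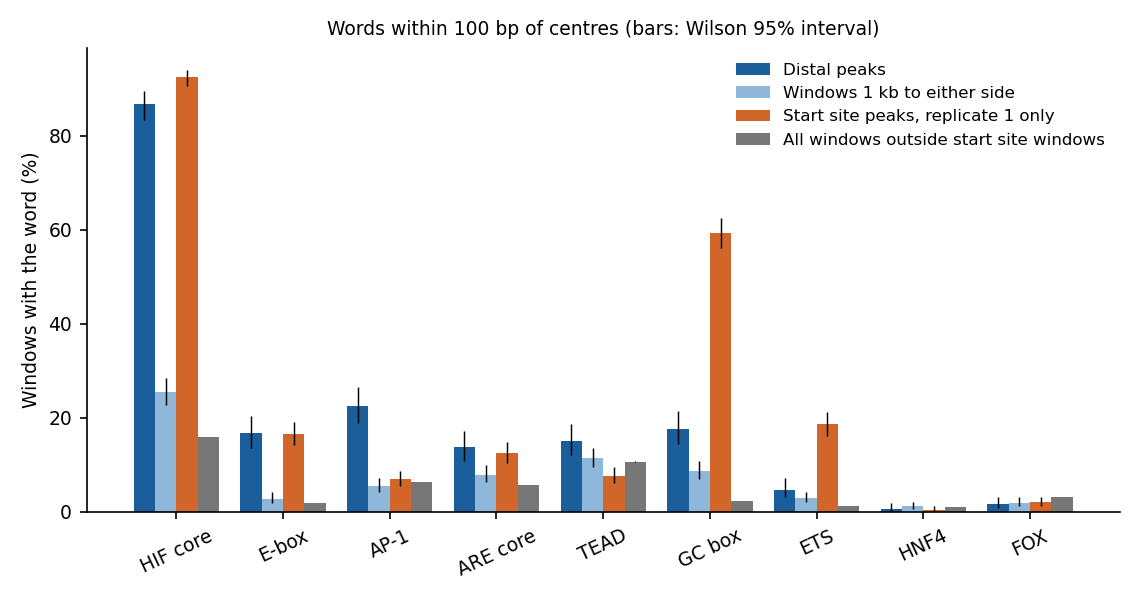
Share of 201 bp windows with each of 9 words on either strand (y axis, %), for the distal peaks, the windows 1 kb to either side of them, the start site peaks of replicate 1 only, and all windows outside start site windows; error bars are Wilson 95% intervals. The HIF core stands at 86.7% in the distal peaks, and the AP-1 word at 22.5% there against 6.90% in start site peaks.

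By the base at the centre, 234 distal peaks were intronic, 52.7% (48.1 to 57.3), 182 were intergenic, 41.0% (36.5 to 45.6), and 28 were exonic, 6.31% (4.40 to 8.96). Of 25927 evenly spaced windows outside start site windows 56.7% were intronic, 39.6% intergenic and 3.78% exonic, so the split between introns and intergenic sequence was near that of the genome. Of the intronic peaks, 187 lay in an intron of a protein-coding gene, spread over 175 genes, and 47 only in introns of other genes, such as long non-coding RNAs. In 158 cases the centre fell in an intron of the gene's canonical transcript: the first intron in 62 (39.2%), the second in 19 and a later one in 77. Of the 28 exonic centres, 9 were in coding sequence, 13 in untranslated or other exons of protein-coding genes and 6 in exons of other genes. All 28 exonic peaks had a HIF core.

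Chromosome 1 held the most distal peaks, 45. Per length, chromosome 19 was highest with 23 peaks, 0.389 per Mb, and chromosomes 18 and X were lowest, with 0.0640 and 0.0644 per Mb.

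The distal peaks lay closer to protein-coding starts than the genome at large. The median distance from centre to the nearest start was 14.4 kb (order-statistic 95% interval 11.4 to 17.1), with quartiles of 5.13 and 43.5 kb, against a median of 46.0 kb for the evenly spaced windows. Within 10 kb of such a start were 186 peaks (41.9%) and 20.5% of windows, and within 100 kb 383 peaks (86.3%) and 64.7% of windows. Intronic peaks were nearer, with a median of 11.2 kb, than intergenic ones, with 20.7 kb. Upstream and downstream positions were about equally common, at 217 and 227. To the start of a gene of any type the median was 7.82 kb.

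**Figure D4:**
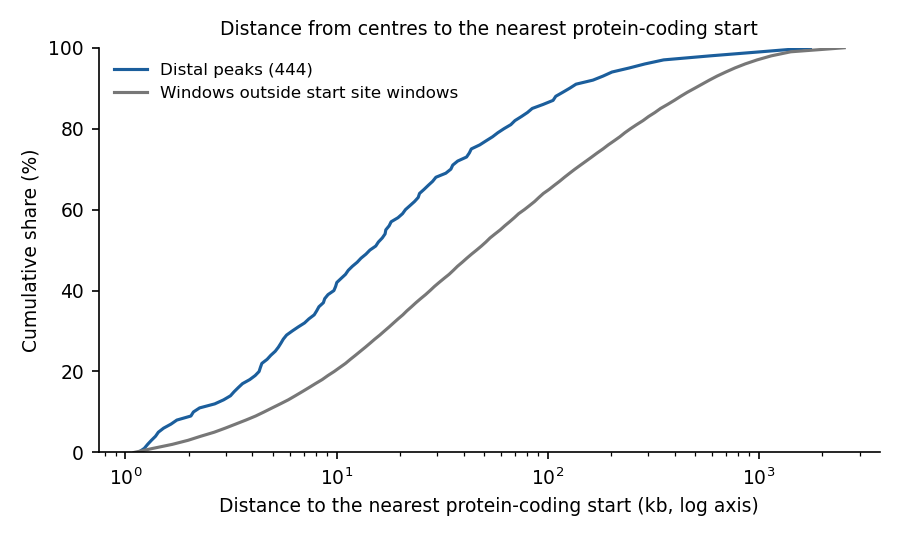
Cumulative share (y axis, %) of the 444 distal peaks (blue) and of 25927 evenly spaced windows outside start site windows (grey) by distance from the centre to the nearest protein-coding start (x axis, kb, log scale). The peaks reach their median at 14.4 kb and the windows at 46.0 kb.

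The peaks at the ends of this range also carried cores. The shortest distances were 1.15 kb at *FBRSL1*, 1.16 kb at *SAP30* and 1.16 kb at *ORAI3*, each in an intron of the gene named. *SAP30*, a subunit of the SIN3 histone deacetylase complex, had a peak at chr4:174293113-174293416 with a core 3 bp from the centre and an FPKM of 20.97 and 21.3. *ORAI3*, a calcium channel subunit, had 4.11 and 1.76. The longest were 1754 kb to *AGA*, a lysosomal hydrolase, 1315 kb to *TENM3*, a teneurin adhesion protein, and 1281 kb to *NSUN3*, an RNA methyltransferase. These 3 intergenic peaks had a single ACGTG each, at 14, 4 and 37 bp from the centre.

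Of 20098 protein-coding genes, 410 (2.04%) were the nearest to a distal peak. In the gene lists drawn up by topic 21 of 150 protein-coding genes were (14.0%), through 24 peaks, of which 23 had a core and 9 had TGANTCA. The lists were drawn up with earlier results known, so the larger share is a description. Nearest means by distance alone, and whether a peak acts on that gene was not tested. By list, the counts were 4 of 22 genes for glycolysis, 2 of 13 for oxygen sensing, 1 of 16 for hypoxic transcription and chromatin, 3 of 15 for angiogenic and vasoactive genes, 3 of 26 for lipid genes, 1 of 12 for mitochondria and mitophagy, 3 of 18 for matrix, 4 of 21 for growth and stress and 0 of 7 for pH and ion transport.

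Glucose uptake and glycolysis were represented by 2 glucose transporters and 2 phosphofructokinase-related genes. The *SLC2A1* peak (chr1:43406717-43407003) lay in its intron 2, 2.05 kb downstream of the nearest annotated start, and FPKM was 196 in replicate 1 and 184 in replicate 2 for the gene. The *SLC2A3* peak (chr12:8123198-8123642) lay 34.6 kb upstream of the nearest start, with values of 10.8 and 15.9, far below those of *SLC2A1*. The *PFKP* peak (chr10:3133092-3133340), in intron 2 of this platelet-type phosphofructokinase gene, had its nearest core 83 bp from the centre, the most off-centre among the peaks of listed genes. *PFKP* had 244 and 247. The *PFKFB3* peak (chr10:6341249-6341571) lay 75.3 kb downstream of the start, with its core 3 bp from the centre, and the gene had 53.4 and 50.1. *SLC2A1*, *PFKP* and *PFKFB3* also had a replicate 1 peak at a start site, and *SLC2A3* did not. Of the 21 listed genes nearest to a distal peak, 7 had such a start site peak, among them also *VEGFA*, *DDIT4*, *PLIN2* and *BNIP3L*.

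In oxygen sensing, the *EGLN3* peak (chr14:34529277-34529689) held 7 cores, 4 of them within 100 bp, and lay 41.6 kb upstream of the nearest start. *EGLN3* had an FPKM of 5.798 and 4.97. The *EPAS1* peak (chr2:46460028-46460349) lay 60.6 kb upstream of the gene with 3 cores and TGANTCA 45 bp from the centre. *EPAS1* had 27.3 in replicate 1 and 42.4 in replicate 2, a wider spread than most genes named here. The peak nearest to *JUN* (chr1:59221121-59221557) lay 28.4 kb downstream of the start, and *JUN* had 117 and 114.

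For secreted vascular factors, the *VEGFA* peaks lay 20.9 and 108 kb downstream of the start, at chr6:43766603-43766981 and chr6:43853918-43854245. *VEGFA* had an FPKM of 87.4 and 86.7, close in both libraries. The peak nearest to *STC2*, a stanniocalcin hormone gene, was intergenic and 127 kb upstream (chr5:172882244-172882499), and *STC2* had 35.8 and 36.7.

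Matrix genes stood among the highest. *LOXL2*, a collagen cross-linking oxidase, had 686 and 539, the highest mean of all genes nearest to a distal peak, and its peak was intronic, 4.30 kb upstream of the nearest start. *COL4A1* and *COL4A2*, which share a bidirectional promoter and encode chains of basement membrane collagen, had 342 and 339.9, and 382 and 368. The *COL4A1* peak (chr13:110658739-110659051) lay 157 kb downstream in an intron of a long non-coding RNA.

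The lipid and mitochondrial genes named here were each nearest to a single distal peak, and *PLIN2* and *BNIP3L* also had a replicate 1 peak at a start site. The *PLIN2* peak (chr9:19161782-19162081) was intergenic and 12.6 kb upstream of the nearest start, and *PLIN2*, which coats lipid droplets, had an FPKM of 200.1 and 204. The *AGPAT2* peak (chr9:139591754-139592163) lay 10.0 kb upstream with 9 cores, and the gene had 39.6 and 35.2. The peak nearest to *PPARGC1A*, a coactivator of mitochondrial biogenesis, lay 102 kb downstream in an exon of a long non-coding RNA, and the gene had 2.87 and 2.60. *BNIP3L*, a mitophagy receptor, had an intronic peak 55.7 kb downstream of a start and 63.5 and 70.04.

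Of the growth and stress genes, *DDIT4* had a peak on each side, 12.9 kb upstream (chr10:74020549-74021046) and 23.7 kb downstream (chr10:74057062-74057983), and an FPKM of 388 and 376. *NDRG1*, a stress-responsive growth inhibitor, also had 2, at 24.8 kb downstream in an intron of *CCN4* and at 80.01 kb upstream between genes. *NDRG1* had 211 and 209, while *CCN4*, a matricellular protein, was listed at 0 in both libraries. *IGFBP3*, an insulin-like growth factor carrier, had a peak 56.6 kb upstream (chr7:46017862-46018249) and values of 198 and 238. *CXCR4*, a chemokine receptor, was near 0, with 0.143 and 0.0605. The peak to which it was the nearest gene (chr2:137003790-137004149) held 2 cores and lay 127 kb upstream.

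Of the 405 nearest genes matched to the RNA-seq tables, 289 had an FPKM of at least 1 in both libraries, 71.4% (66.8 to 75.5), against 59.0% of 19600 protein-coding genes. Their median FPKM was 8.01 in replicate 1 and 7.76 in replicate 2, and that of all protein-coding genes 3.37 and 3.39. Counted by peak, 72.7% (68.3 to 76.6) of 439 peaks had such a gene nearest, against 54.6% of the evenly spaced windows. The share stayed below that of genes nearest to the start site peaks of replicate 1 only, 92.2% (90.2 to 93.9) of 850. Among the 405, 23 had a mean FPKM of at least 100 and 35 were listed at 0 in both libraries, against 492 and 3772 of the 19600. Genes nearest to intronic peaks passed in 78.4% of 218 cases and those nearest to intergenic peaks in 65.7% of 169. After *LOXL2*, the highest included *FTH1*, the ferritin heavy chain, with 569 and 505, *DDIT4*, *COL4A2* and *HMGN2*, a nucleosome-binding protein, with 385 and 314.

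**Figure D5:**
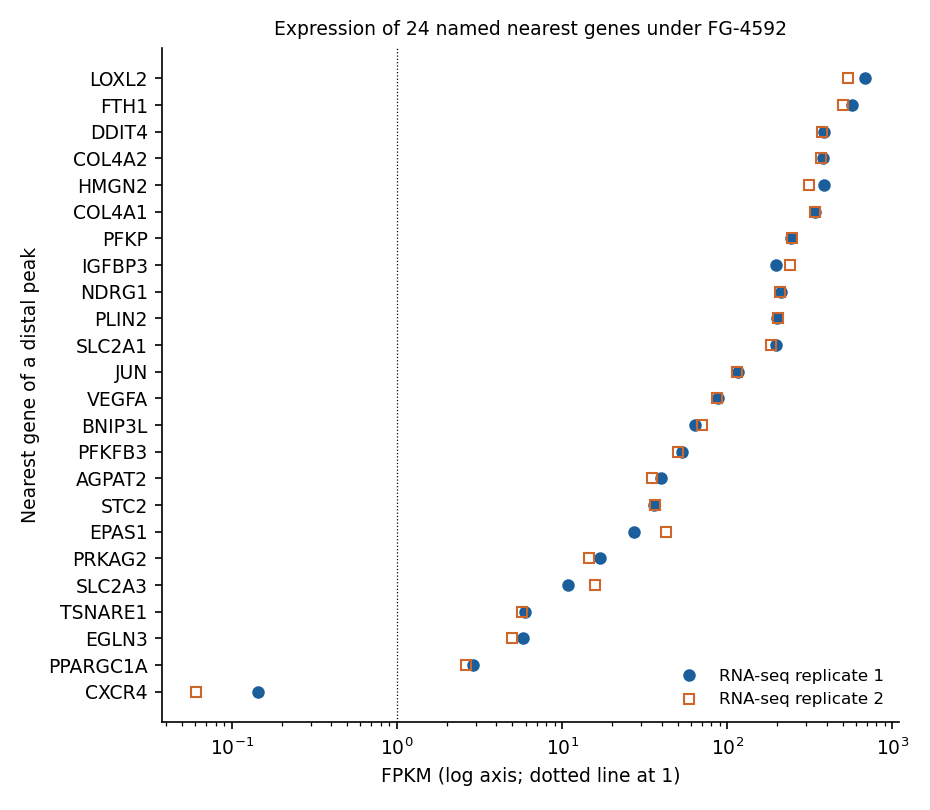
FPKM (x axis, log scale) in RNA-seq replicate 1 (filled circles) and replicate 2 (open squares) for 24 genes nearest to a distal peak, taken from the topic lists, the 10 highest, and those nearest to 3 peaks. All but *CXCR4* lie right of the dotted line at an FPKM of 1 in both libraries.

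The RNA-seq libraries were close for these genes. In 292 nearest genes whose FPKM averaged 1 or more, log2 of replicate 2 over replicate 1 (1 added to each) had a median of -0.01 and a median absolute value of 0.12, the latter the same as over all 11721 such protein-coding genes. By this ratio, with 1 added, they differed more than 2-fold at 2 genes, chosen after their values were seen: *ENAH*, an actin regulator, with 39.2 and 113, and *COPS8*, a signalosome subunit, with 11.3 and 26.4. That is 0.685% of the 292, against 1.01% of the 11721.

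Within 100 kb of a replicate 1 peak at a start were 77 distal peaks, 17.3% (14.1 to 21.1), against 5.94% of the evenly spaced windows. The median distance to one was 585 kb for the distal peaks and 1424 kb for the windows. Of the 410 nearest genes 32 (7.80%) had a replicate 1 peak at a start of their own, against 5.48% of all 20098 protein-coding genes, a small difference. Those 32 genes were more often expressed, with 30 passing an FPKM of 1 in both libraries, than the 373 others, of which 69.4% (64.6 to 73.9) passed.

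Another distal peak lay within 50 kb of 44 of them, 9.91% (7.47 to 13.04), while 1.43% of the evenly spaced windows had a distal peak that near. The median distance to the nearest other was 1085 kb, and from windows to a distal peak 3230 kb. The closest pair lay 616 bp apart. *PRKAG2* and *TSNARE1* were each the nearest gene of 3 peaks, and 30 genes of 2. *PRKAG2*, a regulatory subunit of the energy sensor AMPK, had all 3 in its introns 1, 3 and 4 (chr7:151505938-151506264, chr7:151409053-151409383 and chr7:151345716-151346050), each with at least 1 core. Its FPKM was 17.0 and 14.5. *TSNARE1*, a SNARE-domain protein gene, had 2 in introns and 1 upstream, with 5.95 and 5.73.

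The peaks with the most cores held 7 to 9, and the *EGLN3* peak tied for the last place with 7. *HOOK2*, a microtubule linker protein gene, and *ARID3A*, which encodes a DNA-binding factor, had intronic peaks with 9 cores each (chr19:12893217-12893553 and chr19:941019-941454), as many as the *AGPAT2* peak. The intergenic peak upstream of *ZFPM1*, a cofactor of GATA factors, held 8 (chr16:88509703-88510035), and that upstream of *SHANK2*, a synaptic scaffold gene, held 7 (chr11:71010332-71010710). Their nearest genes were modest, from 0.943 for *SHANK2* in replicate 1 to 39.6 for *AGPAT2* in replicate 1. Among the cell type markers, a peak lay in intron 29 of *CUBN* and another in the first intron of *PDGFRB*, both genes below an FPKM of 1.

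The 59 peaks without a core were intronic in 54.2% (41.7 to 66.3), close to the 52.5% of the others. Their median distance to a protein-coding start was 29.2 kb (18.02 to 68.5), against 12.6 kb (10.4 to 15.9) for the 385 with a core. Of these 59, 5 lay within 1 Mb of an assembly gap of at least 1 Mb, as at centromeres, against 2 of the 385. In all, 7 distal peaks (1.58%) lay so near a large gap. The 128 distal peaks set aside for meeting replicate 2 were of another kind: 72 of them (56.3%) lay within 1 Mb of such a gap, 71.1% (62.7 to 78.2) were intergenic, and a core was found in 40.6% (32.5 to 49.3). The part that position near gaps plays in these differences was not tested.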

How the data were processed

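HIF1α ChIP-seq and RNA-seq were analysed in 2 libraries each of FG-4592-treated HK2 cells. The authors aligned ChIP reads to hg19 with Bowtie2, kept unique reads and called peaks with MACS2 for each replicate; the deposited lists hold positions only. The authors estimated coverage, FPKM and TPM with HISAT2 and StringTie 1.3.3 on GENCODE 27. The paper's methods name hg19 for these reads, but the tables use GRCh38 coordinates, so FPKM, summed over transcripts, was joined to peaks by Ensembl identifier. Assigned bases came to 4442 and 4202 Mb, while ChIP depth is unknown.

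Peaks were set against GRCh37 and GENCODE 44 mapped to it. Words were sought on both strands within 100 bp of centres, and background windows were tiled without overlap; positions used every 500th window. The members and lists were chosen with earlier results of these data known. Genes named are taken from listed genes nearest to a peak, the genes hosting those peaks, the 10 highest nearest genes, genes nearest to 3 or more peaks, the 3 nearest and 3 farthest peaks, the 5 with most cores, markers, and genes over 2-fold apart between libraries. No test was made. Code was tested on simulated data. Software was Python 3.11.15, numpy 2.4.6, pandas 2.3.3, scipy 1.17.1, pysam 0.24.0 and matplotlib 3.10.9.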

Additional observations from a re-analysis of the deposited data

How the results depend on the processing

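Of 40 alternatives, 16 moved a result, and those on the AP-1 word and on assembly gaps were chosen after seeing the data. A start site window of 5 kb left 269 peaks, and the other alternatives gave 375 to 572. The intronic share was 42.3% with protein-coding genes only and 45.1% without ChIP replicate 2. The core share was 78.2% within 50 bp and 76.4% without ChIP replicate 2. The AP-1 share was 13.3% within 50 bp, 31.3% in the whole peak and 13.6% in peaks with no core. The median distance was 7.82 kb to starts of all genes, 23.9 kb to starts of expressed protein-coding genes and 19.2 kb without ChIP replicate 2. The share of nearest genes expressed was 44.1% with genes of any type, 57.8% at an FPKM of 5 and 77.0% at a TPM of 1. Peaks near a start site peak were 2.48% within 10 kb and 46.2% within 500 kb. Leaving out ChIP replicate 2 adds the 128 shared peaks by construction. Why the other results moved was not tested. The other alternatives tried for the intronic, core, AP-1 and expressed shares and for the log2 ratio left them inside their 95% intervals, while every alternative for the median distance and for nearness to a start site peak moved the result. A stricter peak threshold could not be applied to lists without scores. With a single library behind each peak and 2 RNA-seq libraries, the spread between cultures is poorly known.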
